A study of Mus musculus with 21 samples.

Results

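Hedgehog signalling genes were followed through the RNA of germ cells enriched from juvenile mouse testes. The 9 genes were chosen by symbol, with no threshold on their values, and they are 9 of the 37620 genes in the table. They comprise the secreted ligands Dhh, Ihh and Shh, the membrane proteins Ptch1, Smo and Hhip, and the transcription factors Gli1, Gli2 and Gli3. RNA-seq was made from cells of C57BL/6J (B6) males at 12 dpp (days post-partum), freed from the testis with collagenase and trypsin and labelled as spermatocytes. There were 12 libraries, 3 for each of the sample numbers 186wt, 343wt, 444wt and 456wt, and no treatment, other age or other strain was given for them. Whether a sample number was 1 animal or a pool was not stated, so levels are means over the libraries of a number, and every mean ± SD is over 4 sample numbers. The limma test was fitted on the 12 libraries, and its p-values set differences between sample numbers against the spread among libraries of a number. The other 9 samples of the study, which measured PRDM9 binding and histone marks, were not analysed here.

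Hedgehog ligands are secreted proteins that act on neighbouring cells. A ligand binds Ptch1, which otherwise holds Smo inactive, and Smo then lets the Gli factors switch on target genes, among them Ptch1, Gli1 and Hhip themselves. In the testis Sertoli cells, the somatic cells that surround the germ cells within the tubules, are the known source of Dhh, and the cells known to respond lie outside the tubules, among them peritubular myoid cells (the contractile layer around the tubules) and Leydig cells (the androgen-producing cells between them). In RNA of a cell mixture, fewer cells of a type and less RNA per cell cannot be told apart.

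The label was set against marker genes. The 7 meiotic markers, which include Sycp3 and Dmc1, summed to between 293 and 489 FPKM (fragments scaled to the length of the transcript and the size of the library), so meiotic germ cells were present. The 9 Sertoli markers in the table summed to between 2503 and 4471 FPKM, and the 6 peritubular myoid markers to between 261 and 1161. Sums of other lists were far lower, such as 4.75 to 25.3 FPKM for the 5 macrophage markers. No marker of the Leydig, peritubular myoid, interstitial mesenchyme, endothelial, macrophage, Schwann cell or spermatogonial lists was at 0 in all libraries, which is a weak criterion by itself. The RNA was therefore that of a mixture, in which the source of a Hedgehog transcript was not measured. The depth of a library was estimated at 12.6 to 17.9 M (mega) fragments, with a median of 14.8 M.

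The ligands are paralogs, and their coding sequences are shown where Dhh and Ihh are most alike, since reads fitting more than 1 ligand would blur the levels below. The 100-base stretches come from the NCBI build 37 transcripts, read 5′ to 3′ along the coding strand, with bases that differ from Dhh in capitals.
Dhh (coding bases 430 to 529 of 1191): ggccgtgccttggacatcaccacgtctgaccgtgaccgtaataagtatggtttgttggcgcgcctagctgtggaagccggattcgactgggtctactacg
Ihh (coding bases 442 to 541 of 1236): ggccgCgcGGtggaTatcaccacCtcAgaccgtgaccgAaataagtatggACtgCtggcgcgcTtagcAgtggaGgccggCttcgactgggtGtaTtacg
Shh (coding bases 430 to 529 of 1314): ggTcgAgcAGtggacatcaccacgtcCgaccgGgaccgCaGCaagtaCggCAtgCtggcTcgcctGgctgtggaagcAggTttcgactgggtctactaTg
Ihh differed from Dhh at 16 of the 100 bases and Shh at 18, and no other aligned stretch of this length brought Dhh closer to either gene. Shh and Ihh came within 9 differences of each other over 100 bases. The authors kept only reads with fewer than 2 mismatches, and no run of 50 bases is shared between the transcripts of these genes, so a read of one ligand could not fit another within that limit.

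The ligands differed widely in level, and Dhh was the only abundant one. Dhh (ENSMUSG00000023000, chromosome 15 from 98723462 to 98728971 on the minus strand of NCBI build 37) stood at 61.6 FPKM in 186wt, 66.3 in 343wt, 45.8 in 444wt and 36.8 in 456wt. Its mean was 52.6 ± 13.7 FPKM (SD, n = 4), which was above that of 95.2% of the genes in the table. The 3 libraries of a number agreed closely, with SDs of 0.617 to 1.24 FPKM, and no library of one sample number reached the range of the next. Samples 186wt and 343wt were the high pair and 444wt and 456wt the low pair, and Dhh was 1.80-fold higher in 343wt than in 456wt. The difference between these samples was 0.85 on the log2(FPKM + 0.1) scale with an SE of 0.03, and the limma test over the 4 sample numbers gave an adjusted p = 5.61e-10. The samples carry no label other than their number, so a test between them says that these preparations differed, not in what. The 58.2% of all 20795 genes tested that passed the same test show how much of the transcriptome differed between them.

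Ihh (ENSMUSG00000006538, chromosome 1 from 74991891 to 74998246, minus strand), the ligand best known from growing cartilage and gut, stood at 0.167 FPKM in 186wt, 0.23 in 343wt, 0.253 in 444wt and 0.197 in 456wt. The mean of 0.212 ± 0.0380 FPKM (SD, n = 4) corresponds to about 90.8 fragments over all 12 libraries, and 1 fragment was worth 0.0284 FPKM in a library of median depth. The gene was above 0 in all 12 libraries, the libraries of the highest and the lowest sample overlapped, and the difference between samples did not pass the test (limma adjusted p = 0.701).

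Shh (ENSMUSG00000002633, chromosome 5 from 28783355 to 28793641, minus strand), the ligand that patterns the limb and neural tube, stood at 0.1 FPKM in 186wt, 0.0567 in 343wt, 0.19 in 444wt and 0.187 in 456wt. Its mean was 0.133 ± 0.0659 FPKM (SD, n = 4), or about 61.6 fragments in all. The samples did not differ past the threshold over the 4 numbers (limma adjusted p = 0.130), but the value fell to 0.0288 when sample 186wt was left out and to 0.0415 without its second library. Exons of Shh share 291 bases with 9530036O11Rik and 361 bases with Gm17493, long noncoding RNAs of the opposite strand. These were listed at 0.0542 and 0.0533 FPKM, and as the strand setting of the sequencing was not stated, reads of the shared bases cannot be told apart.

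The distance between Dhh and the other ligands held in every sample. Dhh exceeded Ihh 370-fold in 186wt, 288-fold in 343wt, 180.6-fold in 444wt and 187-fold in 456wt. Over Shh the excess ranged from 197-fold in 456wt to 1170-fold in 343wt, where Shh rested on the fewest fragments. Both ratios compare levels per transcript length.

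**Figure D1:**
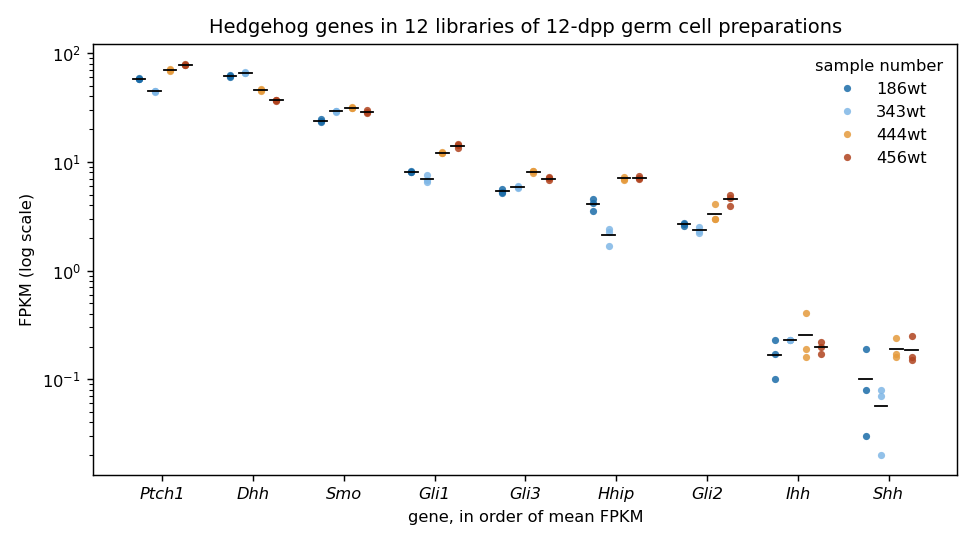
FPKM of the 9 Hedgehog genes on a log axis, with a small point for each of the 12 libraries, coloured by sample number, and a black bar for the mean of the 3 libraries of a sample number. Ptch1 (62.9 ± 14.7 FPKM, SD of the 4 sample means) and Dhh (52.6 ± 13.7 FPKM) lie at the top, and Ihh and Shh lie below 0.5 FPKM in every library.

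Ptch1, the receptor for the ligands and itself a target of the pathway, was the most abundant member. Ptch1 (ENSMUSG00000021466, chromosome 13 from 63610261 to 63674474, minus strand) stood at 58.1 FPKM in 186wt, 44.7 in 343wt, 70.05 in 444wt and 78.6 in 456wt. Its mean of 62.9 ± 14.7 FPKM (SD, n = 4) was above that of 96.3% of genes. The order of the samples was the reverse of that of Dhh at both ends: 343wt had the least Ptch1 and the most Dhh, and 456wt the most Ptch1 and the least Dhh. Ptch1 was 1.76-fold higher in 456wt than in 343wt, 0.81 on the log2 scale with an SE of 0.02 (limma adjusted p = 2.86e-10). The Ptch1 to Dhh ratio went from 0.675 in 343wt and 0.942 in 186wt to 1.53 in 444wt and 2.14 in 456wt. The means of Ptch1 and Dhh thus overlapped, with Ptch1 higher in 2 of 4 samples, and neither can be ranked above the other beyond its spread.

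Smo (ENSMUSG00000001761, chromosome 6 from 29685694 to 29711365, plus strand), the signal transducer that Ptch1 holds back, was the steadiest of the well-expressed members. It stood at 23.9 FPKM in 186wt, 29.3 in 343wt, 31.6 in 444wt and 29.0 in 456wt, and its mean was 28.4 ± 3.23 FPKM (SD, n = 4). Sample 186wt lay below the other 3, which were close to each other. The difference between highest and lowest was 0.40 on the log2 scale with an SE of 0.03 (limma adjusted p = 2.96e-06). Smo shares 87 stretches of 50 bases with the transcript of Gm4066, which was listed at a mean of 0.0592 FPKM, and RSEM divides the reads of such stretches between both. The other 8 members share no such stretch with a protein-coding transcript of another gene.

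Hhip (ENSMUSG00000064325, chromosome 8 from 82490014 to 82581905, minus strand), a membrane protein that binds the ligands and takes them out of circulation, had the widest range on the log2(FPKM + 0.1) scale. It stood at 4.12 FPKM in 186wt, 2.11 in 343wt, 7.06 in 444wt and 7.16 in 456wt, and its mean was 5.11 ± 2.45 FPKM (SD, n = 4). Samples 444wt and 456wt were alike, and 343wt was 3.39-fold below 456wt. The difference was 1.72 on the log2 scale with an SE of 0.12 (limma adjusted p = 7.47e-07). Hhip was the only 1 of the 9 members that passed the test with a range above 1 on this scale, against 10.4% of all genes tested.

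The Gli factors carry the signal into the nucleus. Gli1, an activator and the member whose transcription follows the pathway most closely in other tissues, stood at 8.13 FPKM in 186wt, 6.98 in 343wt, 12.1 in 444wt and 14.0 in 456wt. Its mean was 10.3 ± 3.30 FPKM (SD, n = 4), and 456wt exceeded 343wt by 0.99 on the log2 scale with an SE of 0.06 (limma adjusted p = 1.27e-07). Gli1 (ENSMUSG00000025407, chromosome 10 from 126766945 to 126778645, minus strand) shares 55 exon bases with Arhgap9 on the other strand, which was listed at 0.646 FPKM.

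Gli2 (ENSMUSG00000048402, chromosome 1 from 120730709 to 120950196, minus strand), mainly an activator, stood at 2.67 FPKM in 186wt, 2.35 in 343wt, 3.34 in 444wt and 4.51 in 456wt. Its mean was 3.22 ± 0.956 FPKM (SD, n = 4), and the difference of 0.91 on the log2 scale had an SE of 0.13 (limma adjusted p = 0.000401). Its libraries had an SD of 0.630 FPKM in 444wt and 0.544 in 456wt, and 0.139 or less in the other samples. Gli3 (ENSMUSG00000021318, chromosome 13 from 15555068 to 15821859, plus strand), which acts largely as a repressor when no ligand is present, had another order. It stood at 5.39 FPKM in 186wt, 5.90 in 343wt, 8.14 in 444wt and 7.02 in 456wt, with a mean of 6.61 ± 1.23 FPKM (SD, n = 4). Its highest sample was thus 444wt and its lowest 186wt, as for Smo, with a difference of 0.59 on the log2 scale and an SE of 0.05 (limma adjusted p = 7.95e-06).

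The balance among the Gli factors was taken within each sample. Gli1 exceeded Gli2 by 3.04-fold in 186wt, 2.98-fold in 343wt, 3.63-fold in 444wt and 3.10-fold in 456wt, a ratio of 3.19 ± 0.299 (SD, n = 4). The ratio of Gli3 to Gli2 was 2.02 in 186wt, 2.52 in 343wt, 2.43 in 444wt and 1.56 in 456wt. Gli1 was thus the highest of the 3 in every sample and Gli2 the lowest, and the share of Gli3 was smallest in 456wt. The ratio of Gli1 to Gli3 ranged from 1.18 in 343wt to 1.99 in 456wt.

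Ratios to the ligand were taken as a summary. As Dhh ran the other way between 343wt and 456wt, these ratios necessarily spanned more than each receptor-side gene did alone. The Gli1 to Dhh ratio was 0.132 in 186wt, 0.105 in 343wt, 0.265 in 444wt and 0.380 in 456wt. The Hhip to Dhh ratio was 0.0668 in 186wt, 0.0318 in 343wt, 0.154 in 444wt and 0.195 in 456wt, a span of 6.11-fold. Both ratios put 343wt lowest and 456wt highest, as did the Ptch1 to Dhh ratio with a span of 3.17-fold. The Ptch1 to Smo ratio, between the receptor and the protein it holds back, was 2.43 in 186wt, 1.53 in 343wt, 2.22 in 444wt and 2.71 in 456wt, so Ptch1 exceeded Smo in 4 of 4 samples.

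The 9 levels fell into steps. Ptch1 and Dhh overlapped at the top. Smo followed, 1.85-fold below Dhh on average and below it in 4 of 4 samples without overlap. Gli1 came 2.76-fold below Smo, again without overlap. Gli1, Gli3, Hhip and Gli2 then formed a run in which each overlapped its neighbour, although Gli1 exceeded Gli3 within 4 of 4 samples and Hhip exceeded Gli2 within 3 of 4. A gap of 15.2-fold separated Gli2 from Ihh, and Ihh and Shh overlapped.

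Between the samples, 7 of the 9 members passed the limma test and the 2 rare ligands did not. This count says little about the pathway. Among genes that averaged 1 FPKM or more, where all 7 of these members lie, 75.8% of 14348 genes passed. The median range between the highest and lowest sample was 0.42 on the log2 scale over those genes. Smo lay just below that median, Gli3 above it, and Dhh, Ptch1, Gli1, Gli2 and Hhip all had ranges of 0.81 or more.

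The direction of the differences divided the members. Ptch1, Hhip, Gli1 and Gli2 were lowest in 343wt and highest in 456wt and passed the test, 4 of 9 members, against 6.75% of all genes tested. Dhh had the opposite pattern, highest in 343wt and lowest in 456wt, which 3.39% of all genes tested shared. Smo and Gli3 were lowest in 186wt and highest in 444wt. The patterns counted were ones that the members themselves showed, and all genes tested include low ones, which passed less often. The counts and shares are therefore a description and show no enrichment. For each member the highest and the lowest sample were the same after libraries were rescaled to a common sum of FPKM or to a common upper quartile.

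**Figure D2:**
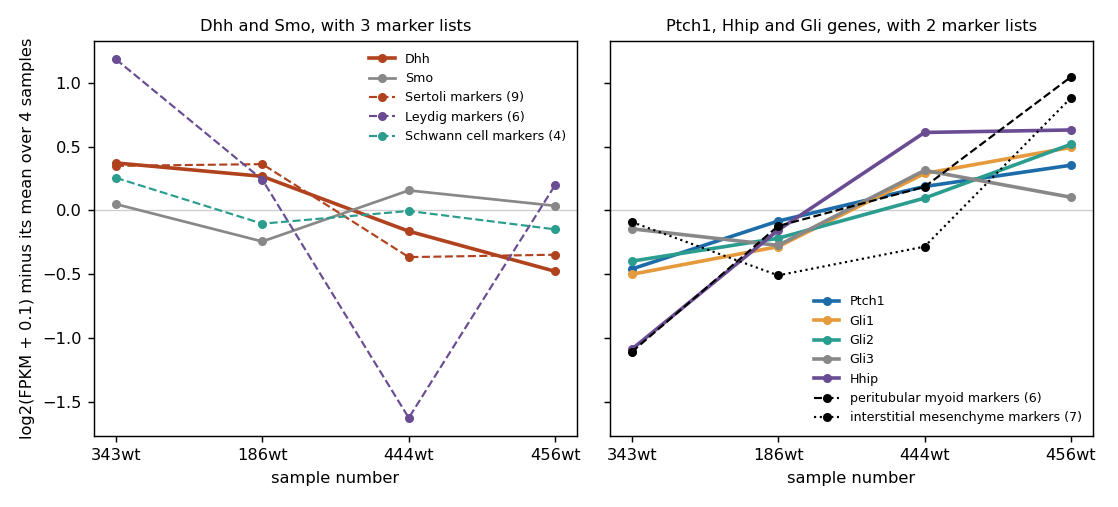
Profile of each member that passed the test, as log2(FPKM + 0.1) of a sample minus the gene's average over the 4 samples, with solid lines that only join the points of a gene and dashed or dotted lines for the mean of a marker list, treated the same way. Dhh and Smo are on the left and the other members on the right. Ptch1, Gli1, Gli2 and Hhip lie low in 343wt and high in 456wt, Dhh lies the other way round, and Smo and Gli3 have their highest point in 444wt.

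The profiles of Ptch1, Gli1 and Gli2 were similar in shape, though many other genes were closer to each of them. The root mean square difference of their centred log2 values over the 4 samples was 0.13 between Ptch1 and Gli1, 0.12 between Ptch1 and Gli2 and 0.11 between Gli1 and Gli2. The Ptch1 to Gli1 ratio accordingly stayed within 5.62 and 7.14, with a mean of 6.23 ± 0.694 (SD, n = 4). Hhip had the same direction with a wider swing and differed from Ptch1 by 0.40. Smo and Gli3 differed from each other by 0.13. Dhh was far from the receptor and the Gli1 profile, by 0.64 from Ptch1, 0.74 from Gli1 and 1.01 from Hhip. Among 14125 genes that averaged 1 FPKM or more, 198 lay within 0.1 of Ptch1, 88 of Gli1 and 176 of Gli2. Those genes were closer than Ptch1, Gli1 and Gli2 were to each other. All these values rest on 4 points, which share libraries and a single normalization, and are given without a test.

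Marker genes of the somatic cells moved between the same samples. All 9 Sertoli markers passed the test. Their summed level was 4355 FPKM in 186wt, 4471 in 343wt, 2503 in 444wt and 2688.5 in 456wt, so the high pair and the low pair were those of Dhh. Among them Aard and Amh, the latter the hormone that removes the Müllerian ducts, were highest in 343wt and lowest in 456wt, as Dhh was, while the other 7 had their highest sample in 186wt or their lowest in 444wt. All 6 peritubular myoid markers, which include Acta2 (smooth muscle actin), passed the test and were highest in 456wt. Their sum was 553 FPKM in 186wt, 261 in 343wt, 695 in 444wt and 1161 in 456wt, the same order as Ptch1, Hhip, Gli1 and Gli2. All 6 Leydig markers passed the test and were highest in 343wt, with sums of 56.5 FPKM in 186wt, 110.5 in 343wt, 16.1 in 444wt and 60.9 in 456wt. The order of the Leydig sums was that of no member.

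The sums of the macrophage markers had the order of the Leydig sums, and those of the spermatogonial markers had the order of Gli3. The remaining lists followed further orders. The 7 interstitial mesenchyme markers summed to 191 FPKM in 186wt, 255 in 343wt, 229 in 444wt and 503 in 456wt, and all passed the test. The 6 endothelial markers were all highest in 456wt, at 37.9 FPKM in sum against 14.5 to 22.7 in the others, and the 5 macrophage markers summed to between 4.75 FPKM in 444wt and 25.3 in 343wt. Schwann cells, a source of Dhh in peripheral nerve, had low markers: Sox10 had a mean of 3.49 FPKM and Mbp of 2.36, and 3 of the 4 markers used passed the test. The 6 spermatogonial markers summed to 439.8 FPKM in 186wt, 447 in 343wt, 608 in 444wt and 546 in 456wt. The 7 meiotic markers were all highest in 444wt. The part of these cell types in the differences of the Hedgehog genes was not tested.

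Each member was also expressed relative to the lists, as its log2 value minus the mean log2 value of the list in the same sample. Relative to the Sertoli list, Dhh stood at -1.47 in 186wt, -1.35 in 343wt, -1.17 in 444wt and -1.50 in 456wt. The range of Dhh was therefore 0.33 against 0.85 before, the smallest for Dhh over the 9 lists, and it stayed between 0.28 and 0.38 when any 1 marker was left out. With the summed FPKM of the list in place of its mean log2 value, the range was 0.42. Relative to the Schwann cell list the range was 0.70, and relative to the other 7 lists it was wider than that of Dhh itself, from 1.18 for spermatogonial and 1.37 for meiotic to 2.27 for Leydig markers and more for peritubular myoid markers.

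Hhip was narrowed most by the peritubular myoid list, from 1.72 to 0.84. For Ptch1 the smallest range was relative to the spermatogonial list, 0.48 against 0.81, and relative to the peritubular myoid list it widened to 1.34, since the myoid markers differed between samples by more than Ptch1 did. The same held for Gli1, with 0.66 relative to the spermatogonial and 1.16 relative to the myoid list against 0.99 before. Gli2 went from 0.91 to 0.58 relative to the spermatogonial and to 0.74 relative to the mesenchyme list, which became 0.41 when the marker Lum was left out. Gli3 relative to the spermatogonial list had a range of 0.09, the smallest of all 63 pairs of a member and a list. Smo had a range of 0.36 relative to the spermatogonial and 0.39 relative to the Schwann cell list against 0.40 before, and a wider one relative to the other 7 lists. The value for the Schwann cell list rose to 0.64 with summed FPKM and to 0.66 without the marker Sox10. Relative to the Leydig list every one of these members had a wider range than before, up to 4.50 for Hhip.

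**Figure D3:**
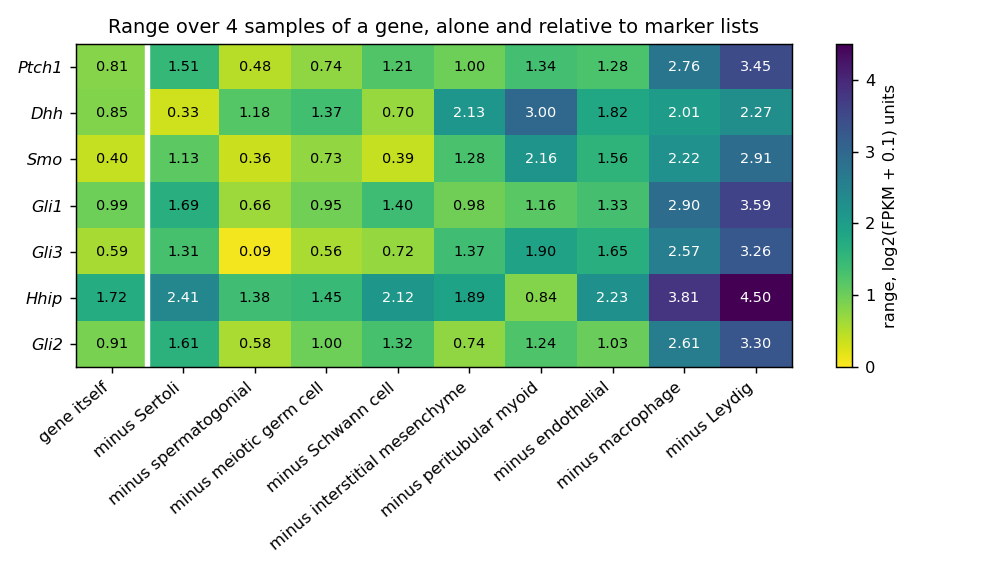
Range over the 4 samples of each member's log2(FPKM + 0.1) after subtraction of the mean of a marker list, with the member's own range in the first column. Dhh has its smallest range, 0.33, relative to the Sertoli markers, Hhip its smallest, 0.84, relative to the peritubular myoid markers, and Gli3 its smallest, 0.09, relative to the spermatogonial markers.

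The genes with the most similar profiles were sought among 14125 genes that averaged 1 FPKM or more and had a symbol carried by no other gene of the table. Closest to Dhh were 4930579G22Rik (root mean square difference 0.026), C330006D17Rik (0.029) and Zfhx4 (0.033), and 103 genes (0.729%) lay within 0.1. Closest to Ptch1 were Zfp467 (0.014), Cacng6 (0.019) and Lass1 (0.023), with 198 genes (1.40%) within 0.1. Closest to Gli1 were Igfbpl1 (0.019), Nkd1 (0.026) and Sox11 (0.031), with 88 genes (0.623%) within 0.1. Closest to Gli2 were Asl, Gata2 and St3gal1, with 176 genes within 0.1. Hhip had a rarer profile: only Gm12953 (0.063) lay within 0.1, and Col6a4 and Gm14492 both followed at 0.12. Profiles like those of Smo and Gli3 were common, with 1313 genes (9.30%) within 0.1 of Smo, led by Ccdc48, Psme1 and Fam78b, and 1285 genes (9.10%) within 0.1 of Gli3, led by 4930524J08Rik, Cenpp and Spata5. Likeness over 4 samples is a description of these libraries.

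Since Ptch1, Gli1 and Hhip are known targets of the Gli factors, the sequence around their starts was searched for the core GLI motif GACCACCCA on either strand, from 2000 bases upstream to 500 bases downstream of the annotated gene start. Of 22380 protein-coding genes, 464 (2.07%) had a match, and of the 9 members only Ptch1 had one. The site lies 299 bases upstream of the annotated start of Ptch1 on the strand of the gene (the annotated start may lie within the first exon, so the distance to the start of transcription is not known here), at chr13:63674773-63674781 (NCBI build 37), and is shown with 10 bases on each side and the motif in capitals.
Ptch1 (chr13:63674763-63674791, minus strand): tggcgcggcaGACCACCCAcgccgagggc
The match is a description of the letters in this window, and binding was not measured here.

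Other genes of the pathway were followed as lists. Of 40 genes used in 4 lists, 39 were in the table, 35 averaged 0.1 FPKM or more and were tested, and 29 passed. Of the 35 tested, 23 passed with a higher level in 456wt than in 343wt, as did 5 of the 9 members and 37.4% of all genes tested. Among genes that passed, the count was 23 of 29 in these lists and 7785 of 12107 over all genes. The direction counted was one that members themselves showed, so these counts are a description.

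The genes that help the ligand leave the cell were expressed at a moderate level. Scube3, Scube2 and Scube1, secreted proteins that carry the lipid-modified ligand away, had means of 7.19 ± 1.43, 4.21 ± 0.691 and 3.32 ± 0.539 FPKM (SD, n = 4). All 3 passed the test and were highest in 456wt, the sample with the least Dhh. Hhat, which adds palmitate to the ligand, had a mean of 2.49 FPKM and did not pass (limma adjusted p = 0.0510), nor did Disp2 at 0.328 FPKM (limma adjusted p = 0.0934). Disp1 was not analysed here.

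The co-receptors Gas1, Boc, Cdon and Lrp2, which help a cell bind the ligand, were all highest in 456wt, and all 4 passed the test. Gas1 stood at 4.86 FPKM in 186wt, 10.8 in 343wt, 5.78 in 444wt and 12.2 in 456wt, a difference of 1.31 on the log2 scale (limma adjusted p = 6.66e-09). Its highest sample was that of Ptch1 and Gli1, but its pair of high samples was 343wt and 456wt, where theirs was 444wt and 456wt. The pair 343wt and 456wt also had the higher sums of interstitial mesenchyme, Leydig, endothelial and macrophage markers. Boc had a mean of 7.18 ± 2.41 FPKM (SD, n = 4) and was 2.02-fold higher in 456wt than in 186wt.

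The proteins that pass the signal from Smo to the Gli factors, in the cytoplasm and the primary cilium, were mostly well expressed. Of 18 genes, 15 passed the test, with a median range of 0.39 on the log2 scale over the list, near the 75.8% that passed and the median range of 0.42 among all genes at 1 FPKM or more. The highest were Csnk1a1 and Prkaca, kinases that phosphorylate Gli proteins, at 123.0 ± 3.55 and 71.2 ± 8.44 FPKM (SD, n = 4), and Spop, which directs Gli proteins to degradation, at 36.4 ± 2.18 FPKM (SD, n = 4). These genes serve other pathways as well. Stk36, Evc2 and Gsk3b did not pass the test.

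Of 12 genes known as Hedgehog targets in other tissues, 8 were tested and 7 passed, against 58.2% of all genes tested. The 7 that passed all averaged 1 FPKM or more, and 75.8% of all genes at that level passed. The highest were Ccnd1 and Ccnd2, cyclins of the G1 phase, at 34.2 ± 7.35 and 29.4 ± 3.17 FPKM (SD, n = 4), and Mycn, a transcription factor of growing cells, at 19.5 ± 1.22 FPKM (SD, n = 4). Foxl1 was tested at 0.116 FPKM and did not pass (limma adjusted p = 0.576). Foxf2, Hand2, Nkx2-2 and Nkx6-1 had means below 0.1 FPKM and were not tested.

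**Figure D4:**
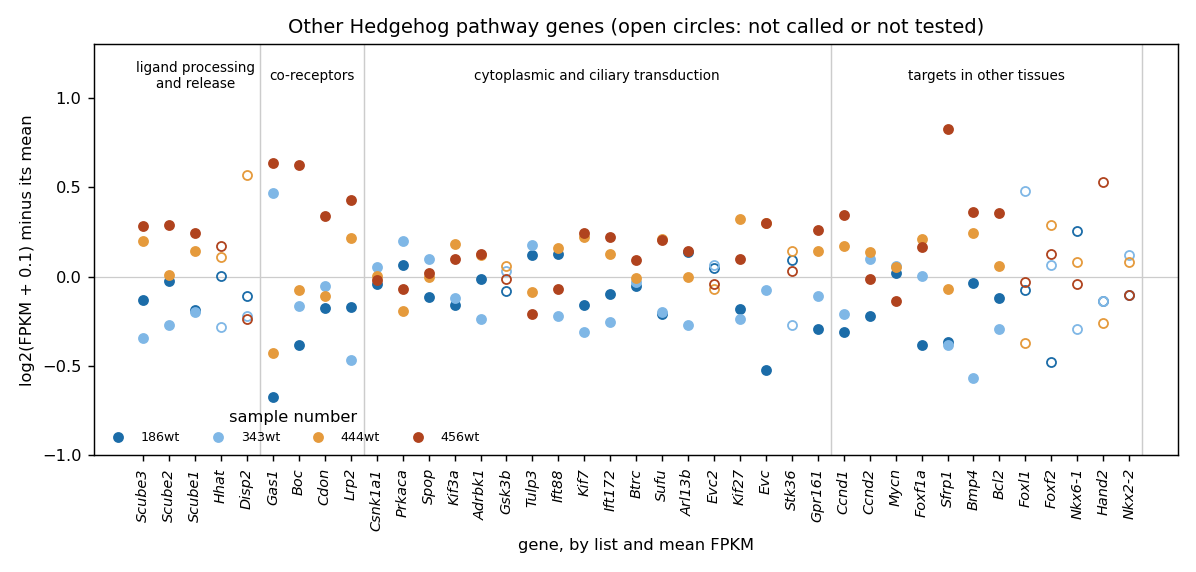
The genes of the 4 other pathway lists, ordered by list and mean FPKM, with a point for each sample number at log2(FPKM + 0.1) minus the gene's mean over the 4 samples. Points are filled for genes that passed the limma test and open for those that did not or were not tested, and sample 456wt is the highest for every co-receptor and for Scube1, Scube2 and Scube3.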

How the data were processed

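RNA was measured in 12 libraries of 4 sample numbers. The authors aligned 100-base paired-end reads to the transcriptome of NCBI build 37 with BowTie 0.12.9, removed reads with 2 or more mismatches, and deposited FPKM computed with RSEM 1.2.8, rounded to 2 decimals and without counts. The strand setting is not given in the sources used here. Column names gave the sample of each library.

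For differences between sample numbers, the F-test of limma 3.58.1 (R 4.3.3, lmFit, eBayes with trend) was run on log2(FPKM + 0.1) over 20795 genes that averaged 0.1 FPKM or more, with Benjamini-Hochberg adjustment over all of them and a threshold of 0.05. Fold changes on this scale understate those of low genes. The authors describe 4 replicates of germ cells as the source of the RNA, as many as there are sample numbers. Libraries of a number may therefore share an RNA, so p-values cover only the spread between these libraries. The scripts were tested on simulated data.

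Depth was estimated from the steps between low FPKM of 197 to 309 single-transcript genes of 300 to 1000 bases per library. Fragment numbers assume the longest transcript. Positions, transcripts and sequences are from NCBI build 37 with GENCODE M1. The members were given by symbol, and members, lists and tests were chosen with earlier results of these data known. All members were named, with the 3 highest genes of each pathway list and the 3 nearest profiles of each member at 1 FPKM or more. Other pathway genes, markers and ratios given were chosen after their values were seen. The marker Rhox5 was not analysed here. Some genes of the lists are not reported here. The remaining steps used pandas 2.3.3, scipy 1.17.1, matplotlib 3.10.9 and numpy 2.4.6 under Python 3.11.15. Alternatives were other pseudocounts, filters and scalings, a replicate block, no trend, and leaving out libraries, sample numbers or markers.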

Additional observations from a re-analysis of the deposited data

How the results depend on the processing

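Over 24 alternatives, 7 or 8 members passed the test and between 9826 (without sample 444wt) and 12146 genes (pseudocount of 1 FPKM) did so. The adjusted limma p-values of the 7 members that passed stayed under 0.05 throughout, the highest being 0.0342 for Gli2, and that of Ihh stayed above it. Shh passed in 2 alternatives, at 0.0288 without 186wt and 0.0415 without 186wt replicate 2. With the library number as a replicate block, 7 members and 11774 genes passed. The library numbers do not pair the samples: deviations of same-numbered libraries correlated at -0.0073 (median) and those of other-numbered libraries at 0.00043. Of 518 ranges relative to a marker list, 2 moved by more than the SD of that relative level over the 4 samples, both of Smo relative to Schwann cell markers, to 0.64 with summed FPKM and 0.66 without Sox10. That of Gli2 relative to interstitial mesenchyme markers moved by over 1.5 times, to 0.41 without Lum. Depth limits Ihh and Shh, which rest on about 90.8 and 61.6 fragments.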
